A study of Mus musculus with 17 samples.

Results

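Long-term haematopoietic stem cells (LT-HSCs) of CD41-knockout mice (CD41-KO) were compared with those of wild-type mice (WT) at 2 months of age. The arrays were chosen by the genotype and age in their titles, which gave 5 of the 17 arrays in the series: CD41-KO replicates 1 and 2 and WT replicates 1 to 3. Each array carried amplified RNA of 1000 cells that had been sorted from the bone marrow of 4 to 5 pooled mice as lineage-negative, Sca1+, cKit+, CD48- and CD150+. No agent was given to any group, and the labels name neither the strain nor the sex nor the part of Itga2b that was deleted. The 6 arrays of the same gate and genotypes at 12 months, 3 of each genotype, shared the estimate of the spread and served to compare ages. Whether the replicates were separate pools is not stated, and the p-values therefore cover the spread between these arrays alone. In sorted bulk cells, fewer cells of a kind and less RNA per cell cannot be told apart.

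CD41 is integrin alpha-IIb, the product of Itga2b. It pairs with integrin beta-3 on megakaryocytes and platelets to form the receptor for fibrinogen and von Willebrand factor, and signals both into and out of the cell. In the embryo CD41 appears on the earliest blood progenitors, and in adult marrow it is found on a share of stem cells that also carry megakaryocyte transcripts. Immediate early genes, which form one of the groups below, are transcribed within minutes of a stimulus without new protein synthesis. They encode AP-1, EGR, NR4A and KLF transcription factors together with inhibitors that end the signal, and several of them are known to restrain stem cell division.

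The Itga2b probe is shown because it reads the targeted gene. It is a 60-base oligonucleotide on the minus strand whose match spans 209 bases of the gene, chr11:102319453-102319661 in mm9:

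Itga2b probe: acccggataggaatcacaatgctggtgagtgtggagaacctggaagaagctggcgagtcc

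Levels are given as log2 signal relative to the 75th percentile of the array, so that 1 unit is a 2-fold difference. Itga2b read 1.01, 0.63 and 0.92 in the 3 WT samples and -2.27 and -1.45 in CD41-KO samples 1 and 2. Both CD41-KO samples were far below every WT sample, although the probe was still well above background in both. The log2 difference was -2.71 ± 0.30 (SE, 2 against 3 arrays) with an adjusted p of 0.000919 in limma's moderated test, Benjamini-Hochberg adjusted over all genes. It was -3.27 on slide 1 and -2.07 on slide 2, the slides that held both genotypes. Whether the probe lies inside the deleted part is not known here.

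The groups also differed in transcripts of the sex chromosomes. Xist, the RNA of the inactive X chromosome in females, read -2.20, -2.47 and -2.17 in the WT samples and 5.48 and 5.07 in the CD41-KO samples. The Y-linked genes Ddx3y, Uty and Kdm5d were well above background in all 3 WT samples and in no CD41-KO sample, and were at least 17.2, 6.38 and 4.94-fold lower in CD41-KO. Eif2s3y, also on Y, was above background on all 5 arrays and differed by -1.70 on the log2 scale. All 6 arrays at 12 months read between 4.27 and 5.18 for Xist. At 2 months genotype and sex therefore cannot be told apart, for autosomal genes as well. Probes on X and Y were left out of all results that follow.

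The share of spots well above background was 82.7% to 93.3% an array, no spot was saturated, and replicates correlated at 0.975 to 0.983 within the groups at 2 months. Kit, Ly6a and Slamf1, whose products were in the gate, were well above background on all 5 arrays. The same was true of genes of excluded cells, among them Cd8a, Itgam, Cd4, Cd48 and Cd3e, so that detection alone did not separate gated from excluded cells on these arrays. Of the gate genes, Slamf1, which encodes CD150, was higher in CD41-KO (0.91 ± 0.24, adjusted p = 0.0445 in limma). That call was lost in 11 of 20 alternative analyses, among them those without WT sample 2, WT sample 3 or either CD41-KO sample.

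Of 32085 genes tested at 2 months, 2035 (6.34%) were higher and 1290 (4.02%) were lower in CD41-KO at an adjusted p under 0.05 in limma, together 10.4%. The difference was at least 2-fold in 651 of the higher and 445 of the lower genes, or 3.42% of all. The median size of a called difference was 0.82 on the log2 scale. Groups did not overlap in 3320 of the 3325 called genes, against 37.6% of all genes tested. All 3321 called genes that could be measured on both slides had the same sign on each, as did 80.72% of all genes, and the differences on the slides correlated across genes at 0.763. With the replicate number, which is also the slide, as a block, the calls rose to 6419 higher (20%) and 5073 lower (15.8%). CD41-KO sample 1 carried many calls: without it 309 genes were higher and 352 lower. Without CD41-KO sample 2 there were 955 and 533, without WT sample 3 there were 1059 and 687, and without WT sample 2 there were 1266 higher.

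**Figure D1:**
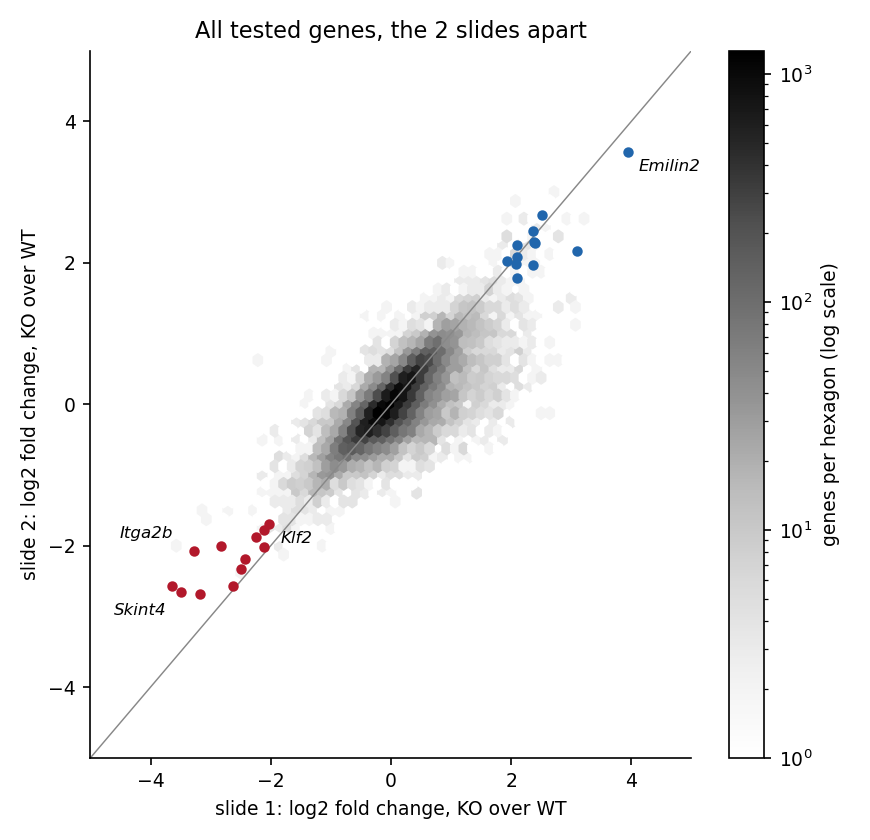
Difference between CD41-KO and WT in all tested genes on slide 1 (x axis, log2) and on slide 2 (y axis, log2), as grey density. Coloured are the 12 highest and 12 lowest of the ranked genes, which were chosen with the same sign on both slides. Itga2b sits at -3.27 and -2.07.

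Emilin2, an extracellular matrix glycoprotein, had the highest difference among protein-coding genes that were well above background on all 5 arrays. It read -1.93, -1.92 and -1.91 in WT and 2.02 and 1.64 in CD41-KO, a difference of 3.75 ± 0.15 (adjusted p = 3.152e-06, limma). The WT values were almost equal, and both CD41-KO values lay far above them. Fabp4, a fatty acid binding protein, read -4.09, -3.46 and -3.79 in WT and -0.99 and -1.29 in CD41-KO, a difference of 2.64 ± 0.20. Scpep1, a serine carboxypeptidase, read -2.65, -2.84 and -2.70 in WT and -0.28 and -0.38 in CD41-KO, a difference of 2.40 ± 0.12. The genes of this ranking were chosen without overlap between the groups. Others with high differences were Tmem252 (2.64), the tRNA-modifying enzyme Cdk5rap1 (2.42), the secretory granule lectin Zg16 (2.16), the RNA helicase Dhx40 (2.08), the actin-severing Cfl2 (2.07), Lypd9 (2.02), the endothelial surface protein Ecscr (2.02), the glutamate receptor Gria1 (1.93) and Speer4e (1.93). All of these calls held in 20 of 20 alternatives except that of Lypd9, which was lost without CD41-KO sample 1 (adjusted p up to 0.0605) and when only the 5 arrays were fitted.

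Skint4, of the Skint family of immunoglobulin-like proteins, was the lowest gene. Its WT samples read 0.04, -0.14 and -0.13 and its CD41-KO samples -3.59 and -2.70, a difference of -3.07 ± 0.23 (adjusted p = 0.000129, limma). Cd200r3 and Cd200r2, neighbouring receptors of the CD200 receptor family on chromosome 16, differed by -2.77 and -2.39. Cd200r2 read 0.29, 0.16 and 0.16 in WT and -2.54 and -1.84 in CD41-KO. P2rx5, an ATP-gated ion channel, read -0.78, -0.60 and -0.68 in WT and -3.95 and -3.28 in CD41-KO, a difference of -2.93 ± 0.34. The lowest genes too were chosen without overlap, so that separation of the groups follows from the selection. Further down were the dehydrogenase Dhrs7c (-3.05), Ccdc54 (-2.40), the immunoglobulin superfamily member Igsf23 (-2.32), the urokinase receptor Plaur (-2.04), the cytoskeletal protein Ermn (-2.01), the netrin receptor Unc5a (-1.96) and Klf2 (-1.96). A further probe of Ermn differed by only -0.26. The 12 lowest genes, Itga2b and Klf2 among them, kept their call in every alternative that gave them a value, which was 19 for P2rx5 and Plaur and 20 for the others.

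**Figure D2:**
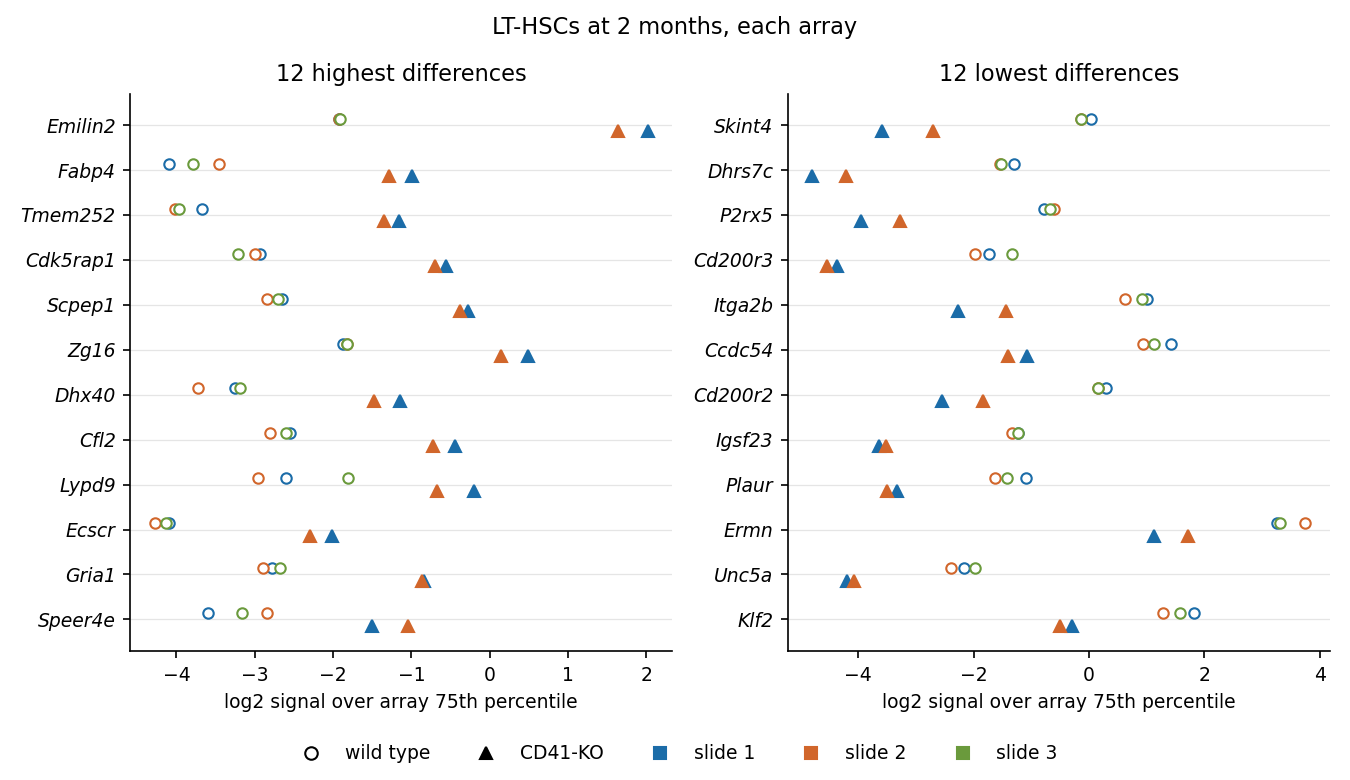
Level of the 12 highest and the 12 lowest genes on each array at 2 months (x axis, log2 signal over the array's 75th percentile), with one point per array. The genes were chosen without overlap between the groups, so the CD41-KO points lie apart from the WT points in every gene by selection. The difference of the means runs from -3.07 for Skint4 to 3.75 for Emilin2.

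Some genes were above background in only 1 genotype, so that a bound replaces their fold change. The bound sets the bright group's mean against the dim group, taking on each dim array the higher of the lowest signal well above background and the gene's own signal. For Pi4k2b and Kdm4d the gene's own signal was the higher, so their bounds equal the measured fold. These genes entered the test through the genotype in which they were bright, and their p-values are given as a description. Alpl, tissue-nonspecific alkaline phosphatase, was not well above background in any WT sample and was at least 3.73-fold higher in CD41-KO (adjusted p = 0.000255, limma). The bounds were at least 5.69-fold for the phosphatidylinositol kinase Pi4k2b, 4.44-fold for the autophagy gene Atg9b, 4.21-fold for the galactosyltransferase B3galt1, 3.95-fold for Nxpe5 and 3.59-fold for the sodium-calcium exchanger Slc8a2. In the other direction, Drc3, a protein of the motile cilium, was not well above background in CD41-KO and was at least 4.56-fold lower (adjusted p = 0.000536, limma). Psg22, Rad51ap2, Cep44, Zfp105 and Kdm4d were at least 3.74, 3.69, 3.47, 2.94 and 2.47-fold lower. Rad51ap2 lost its call in 10 of 19 alternatives, and Pi4k2b, Cep44 and Zfp105 lost theirs without CD41-KO sample 1. Psg22 lost its call without either CD41-KO sample, and Rad51ap2 also without WT sample 1 or WT sample 3. Alpl, B3galt1, Slc8a2, Psg22, Rad51ap2 and Kdm4d lost theirs with normexp background correction.

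The immediate early genes were the group with the largest share of lower members. Of 37 tested members 14 (37.8%) were lower and none was higher, beside 4.02% lower among all genes, and their median difference was -0.57 beside 0.0026 over all genes. A value below 0 was found in 34 of the 37, and 32 were lower on both slides. In 28 members all CD41-KO values lay below all WT values, beside 16.4% of all genes. With the replicate block 28 were lower and 1, Myc, was higher, beside 15.8% and 20% of all genes. The list was chosen with earlier results of these arrays known, so its counts are a description.

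The promoters of 6 of the lower genes are shown because they hold TGACG, the shorter form of the cAMP response element, and that of Socs3 because it holds a STAT site. Each sequence is the 250 bases before the RefSeq start in GRCm38.p6, read on the strand of the gene, with matches on either strand in capitals:

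Klf2 promoter (chr8:72318812-72319061, plus strand): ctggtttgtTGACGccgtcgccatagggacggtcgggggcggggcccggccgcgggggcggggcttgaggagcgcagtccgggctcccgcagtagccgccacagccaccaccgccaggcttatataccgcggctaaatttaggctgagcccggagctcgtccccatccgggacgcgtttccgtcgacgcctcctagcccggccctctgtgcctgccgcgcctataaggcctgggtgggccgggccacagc
Junb promoter (chr8:84978749-84978998, minus strand): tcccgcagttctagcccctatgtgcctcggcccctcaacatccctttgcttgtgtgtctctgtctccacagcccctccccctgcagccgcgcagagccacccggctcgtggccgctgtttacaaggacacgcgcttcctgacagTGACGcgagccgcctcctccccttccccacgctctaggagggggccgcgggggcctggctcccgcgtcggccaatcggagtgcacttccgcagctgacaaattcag
Fos promoter (chr12:85473640-85473889, plus strand): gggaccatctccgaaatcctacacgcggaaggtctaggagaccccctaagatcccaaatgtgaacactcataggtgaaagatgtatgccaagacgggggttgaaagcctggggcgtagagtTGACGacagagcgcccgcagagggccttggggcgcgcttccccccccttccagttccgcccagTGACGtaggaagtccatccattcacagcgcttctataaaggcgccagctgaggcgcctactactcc
Atf3 promoter (chr1:191183334-191183583, minus strand): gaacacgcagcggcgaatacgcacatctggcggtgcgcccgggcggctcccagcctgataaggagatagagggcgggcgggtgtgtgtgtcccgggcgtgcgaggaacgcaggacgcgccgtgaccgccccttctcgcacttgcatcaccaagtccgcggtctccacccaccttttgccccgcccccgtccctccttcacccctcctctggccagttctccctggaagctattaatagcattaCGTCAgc
Nr4a1 promoter (chr15:101266596-101266845, plus strand): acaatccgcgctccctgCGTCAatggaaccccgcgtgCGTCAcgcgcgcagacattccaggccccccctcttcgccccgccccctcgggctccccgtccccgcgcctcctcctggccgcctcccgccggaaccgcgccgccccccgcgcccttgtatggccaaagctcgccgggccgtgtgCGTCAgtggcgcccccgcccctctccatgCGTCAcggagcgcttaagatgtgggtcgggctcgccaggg
Dusp1 promoter (chr17:26508473-26508722, minus strand): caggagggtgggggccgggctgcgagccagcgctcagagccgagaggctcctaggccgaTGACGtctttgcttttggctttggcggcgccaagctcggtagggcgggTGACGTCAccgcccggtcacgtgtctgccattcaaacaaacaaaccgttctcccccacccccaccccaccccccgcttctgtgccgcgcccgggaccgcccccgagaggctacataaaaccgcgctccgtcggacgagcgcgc
Socs3 promoter (chr11:117969367-117969616, minus strand): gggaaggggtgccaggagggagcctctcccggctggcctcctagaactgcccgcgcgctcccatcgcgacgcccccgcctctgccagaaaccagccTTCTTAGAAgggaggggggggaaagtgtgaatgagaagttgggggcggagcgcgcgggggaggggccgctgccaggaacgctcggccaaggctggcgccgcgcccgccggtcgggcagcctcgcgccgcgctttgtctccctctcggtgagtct

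Of the 14 lower genes 12 had a promoter in the RefSeq table, and 6 of these held TGACG, which 17.8% of 32851 promoters of the same length held. It was also in 4 of 10 matched promoters of the higher cell cycle genes and 3 of 7 of the higher oxidative phosphorylation genes described further on. The full element TGACGTCA, which overlaps it, was in Dusp1 and in 1.55% of all promoters. The STAT site TTCNNNGAA was in Socs3 and Zfp36 (7.02% of all), the CArG box in Zfp36 (1.47% of all), and the AP-1 site TGANTCA in none of the 12 (6.75% of all). A match describes the letters in this window and no binding was measured.

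Among the AP-1 subunits Junb had the largest difference. It read 2.09, 1.79 and 2.02 in WT and 0.56 and 0.44 in CD41-KO, a difference of -1.47 ± 0.17 (adjusted p = 0.00117, limma). Fos read 2.34, 1.96 and 1.99 in WT and 1.43 and 1.10 in CD41-KO, a difference of -0.83 ± 0.18 (adjusted p = 0.0203). In both genes all CD41-KO values lay below all WT values. All 6 tested AP-1 subunits were below 0. Of those that did not pass, Fosb differed by -0.76 (adjusted p = 0.0868, and 0.000392 with the replicate block) and Jun by -0.23 (adjusted p = 0.525). Atf3, a stress-induced partner of AP-1, read -0.93, -1.64 and -1.36 in WT and -2.50 and -2.95 in CD41-KO, a difference of -1.42 ± 0.22.

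Of the EGR and NR4A factors, Nr4a1, an orphan nuclear receptor, read 2.92, 2.74 and 2.87 in WT and 2.19 and 1.88 in CD41-KO (-0.80 ± 0.16, adjusted p = 0.0124 in limma). Egr1, a zinc finger factor known for holding stem cells in quiescence, read 3.75, 3.28 and 3.46 in WT and 2.88 and 2.55 in CD41-KO (-0.78 ± 0.21, adjusted p = 0.0432). Egr3 differed by -0.70 ± 0.13. All 3 fell without overlap. Klf2, a zinc finger factor of quiescent lymphocytes and endothelium, read 1.83, 1.28 and 1.58 in WT and -0.29 and -0.50 in CD41-KO. At -1.96 ± 0.20 (adjusted p = 0.000731) it had the largest difference of the list. Klf6 read 3.21, 2.78 and 2.81 in WT and 1.96 and 1.51 in CD41-KO (-1.19 ± 0.21). Myc, of the same group, read 0.54, 0.10 and 0.22 in WT and 0.93 and 0.59 in CD41-KO, and its difference of 0.47 did not pass (adjusted p = 0.148, and 0.00272 with the replicate block).

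Socs3, a feedback inhibitor of cytokine signalling through JAK and STAT, read 1.05, 0.67 and 0.91 in WT and -0.65 and -0.95 in CD41-KO, a difference of -1.68 ± 0.18 (adjusted p = 0.000824, limma). Dusp1, a phosphatase that switches off MAP kinases, read 3.39, 3.08 and 3.24 in WT and 2.54 and 2.25 in CD41-KO, a difference of -0.84 ± 0.15. Zfp36, which speeds the decay of cytokine mRNAs, differed by -0.64 ± 0.16. All 9 tested feedback inhibitors were below 0, and 3 passed. Of the other early response genes, the small GTPase Rhob (-1.07 ± 0.15) and the stress sensors Gadd45b (-0.63 ± 0.16) and Gadd45g (-0.57 ± 0.11) were lower. The count of 14 was 8 without CD41-KO sample 1, 7 without CD41-KO sample 2 and 11 to 13 without a WT sample. Junb, Klf2, Rhob and Socs3 were the 4 that passed when only the 5 arrays at 2 months were fitted.

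**Figure D3:**
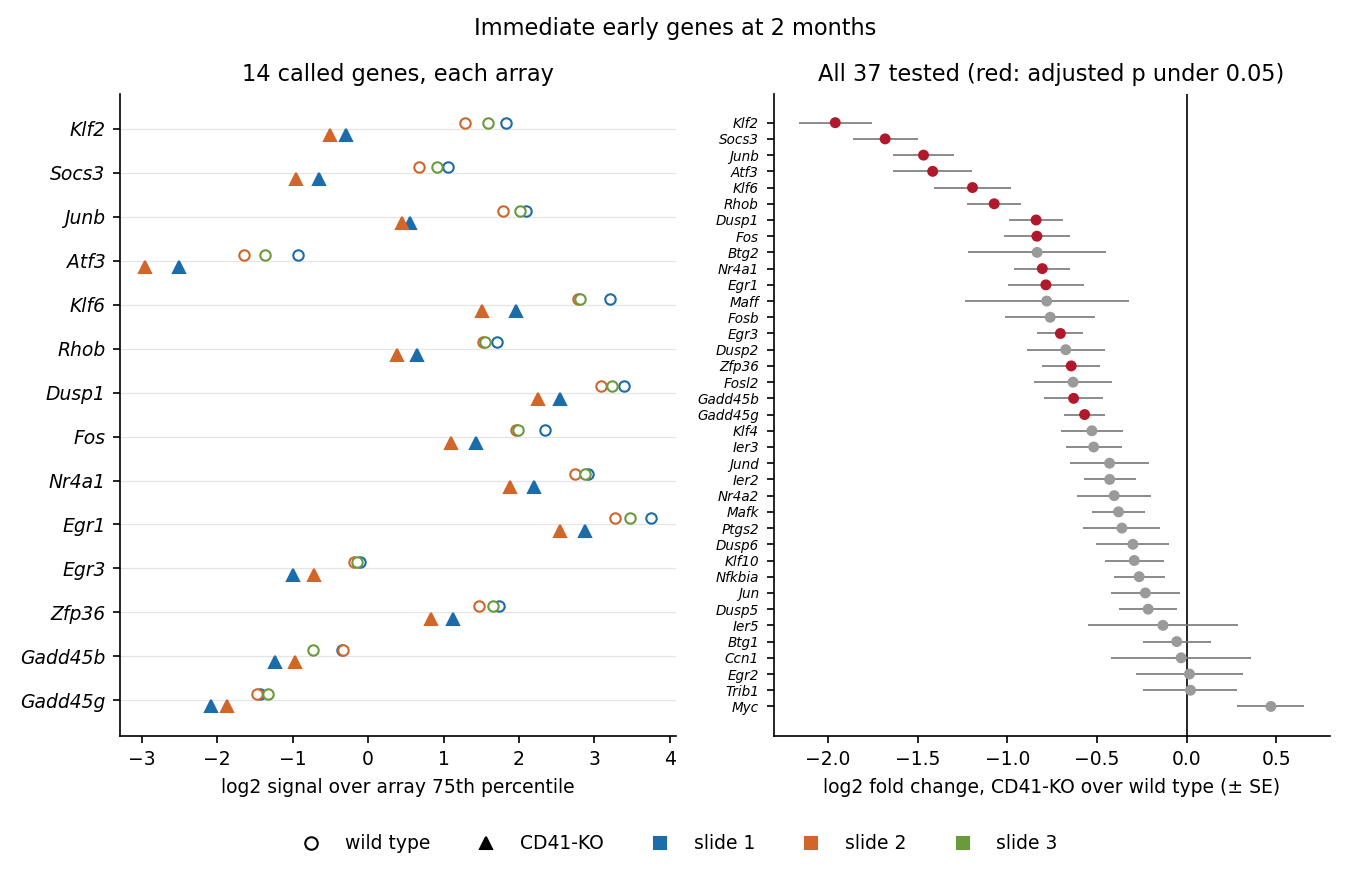
Left, level of the 14 lower immediate early genes on each array (x axis, log2 signal over the array's 75th percentile), and right, log2 fold change of all 37 tested members with its standard error. The CD41-KO points lie below the WT points in each of the 14 genes, and 34 of the 37 differences are below 0.

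Among the NF-kB, glycolysis and hypoxia, heat shock and TGF-beta genes none was higher in limma. The lower share was 4.76% for NF-kB and 3.7% for glycolysis and hypoxia. It was 6.67% for heat shock and 7.69% for TGF-beta, beside 4.02% of all genes. Tnfaip3, an inhibitor of NF-kB, read -0.93, -1.64 and -1.53 in WT and -2.62 and -3.21 in CD41-KO (-1.56 ± 0.27, adjusted p = 0.00753 in limma) and was the only one of 21 NF-kB genes that passed. Ddit4, an inhibitor of mTORC1 that hypoxia induces, differed by -1.16 ± 0.18 and was the only one of 27 glycolysis and hypoxia genes. The chaperone Hsph1 (-0.52) was the only one of 15 heat shock genes. In the TGF-beta group Skil (-0.76 ± 0.12) and the receptor Bmpr2 (-0.59 ± 0.16) were lower among 26, but a further probe of Skil differed by 0.84 in the opposite direction. These counts were larger with the replicate block, at 4 higher and 6 lower for NF-kB, 11 and 2 for glycolysis and hypoxia, 1 and 4 for heat shock and 5 and 7 for TGF-beta. Among all genes 20% were higher and 15.8% lower in that fit. Hsph1 and Bmpr2 lost their calls when any 1 of the 5 arrays was left out, Tnfaip3 without CD41-KO sample 2, and Skil without CD41-KO sample 1.

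Genes of the cell cycle were higher in 13 of 64 tested members (20.3%, beside 6.34% of all genes), and 1, the mitotic motor Cenpe (-0.60), was lower. The median was 0.37. Of the genes of entry into S phase, E2f2 read -0.62, -0.44 and -0.67 in WT and 0.67 and 0.58 in CD41-KO (1.20 ± 0.13, adjusted p = 0.000811 in limma). Cyclin E1 (Ccne1) read -0.42, -0.53 and -0.43 in WT and 0.37 and 0.26 in CD41-KO (0.77 ± 0.11). In both, every CD41-KO value exceeded every WT value. The kinase Cdk2 was higher by 0.69 ± 0.17. In DNA replication, 7 of 24 members were higher, including the replication factor Mcm10 (0.67 ± 0.15) and the thymidine kinase Tk1 (0.79 ± 0.19). Also among the 7 were the helicase subunits Mcm4 (0.64 ± 0.16) and Mcm6 (0.58 ± 0.16). In G2 and mitosis, 3 of 28 were higher, with Nusap1, a spindle protein, at 1.07 ± 0.13, Kif11 at 0.58 ± 0.12 and Top2a at 0.78 ± 0.20. Mki67, a marker of dividing cells, read 2.52, 2.12 and 2.26 in WT and 2.92 and 2.58 in CD41-KO, and its difference of 0.45 did not pass (adjusted p = 0.161, and 0.0027 with the replicate block). Its other probe differed by 0.50 ± 0.12. None of 9 tested cell cycle inhibitors passed, with Cdkn1a at -0.70 (adjusted p = 0.0625). With the replicate block 34 members were higher and 1 lower, beside 20% and 15.8% of all genes. Of the inhibitors 1 was higher and 1, Cdkn1a, lower in that fit (adjusted p = 0.00106). Without WT sample 2, WT sample 3, CD41-KO sample 1 and CD41-KO sample 2 the count of 13 was 4, 3, 3 and 4.

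The promoter of Mcm6 is shown because it was the 1 of 10 matched promoters of higher cell cycle genes with the E2F site TTTNGCGC (1.13% of all promoters), which occurs there at 3 places, some of them overlapping:

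Mcm6 promoter (chr1:128359706-128359955, minus strand, GRCm38.p6): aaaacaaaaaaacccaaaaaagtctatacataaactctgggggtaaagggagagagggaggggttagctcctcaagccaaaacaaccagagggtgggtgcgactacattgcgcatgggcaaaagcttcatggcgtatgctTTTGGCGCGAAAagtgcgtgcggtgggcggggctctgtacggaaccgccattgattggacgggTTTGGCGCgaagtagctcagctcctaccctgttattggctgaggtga

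Subunits of oxidative phosphorylation were higher in 9 of 68 tested members (13.2%, beside 6.34% of all genes) and lower in none. The median was 0.38, and 63 members were above 0. Ndufb8, of complex I, read 2.33, 2.27 and 2.30 in WT and 3.02 and 2.84 in CD41-KO (0.63 ± 0.12, adjusted p = 0.0103 in limma). Atp5k, of the ATP synthase, read -0.64, -1.10 and -0.95 in WT and 0.02 and -0.24 in CD41-KO (0.78 ± 0.19, adjusted p = 0.0282). The CD41-KO samples lay above all WT samples in both. Complex I gave 5 of the calls (Ndufb8, Ndufc2, Ndufs1, Ndufc1 and Ndufa5), complex III gave Uqcrb and Uqcrfs1, and the ATP synthase gave Atp5k and Atp5o. No member of complex II or IV passed. With the replicate block 51 members were higher and 1 lower, beside 20% and 15.8% of all genes, including 3 of 4 in complex II and 7 of 10 in complex IV as higher. The count fell to 1 without WT sample 2, WT sample 3 or CD41-KO sample 2, and to 0 without CD41-KO sample 1. Of 7 matched promoters of the higher genes 1, that of Atp5k, held the NRF1 site (0.782% of all).

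Mitochondrial ribosome subunits were higher in 4 of 32 (12.5%, beside 6.34% of all genes), with a median of 0.40, and 29 were above 0. Mrpl20 differed by 0.58 ± 0.11, Mrpl18 by 0.89 ± 0.19, Mrps30 by 0.73 ± 0.19 and Mrpl9 by 0.78 ± 0.21 (0.01 ± 0.24 by another probe). With the replicate block 19 were higher, beside 20% of all genes. The count was 1 without WT sample 2, WT sample 3 or CD41-KO sample 2, and 0 without CD41-KO sample 1. Of the cytosolic ribosomal proteins 1 of 41, Rpl4 (0.57 ± 0.12), was higher, with a median of 0.12, and 10 were higher with the replicate block.

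**Figure D4:**
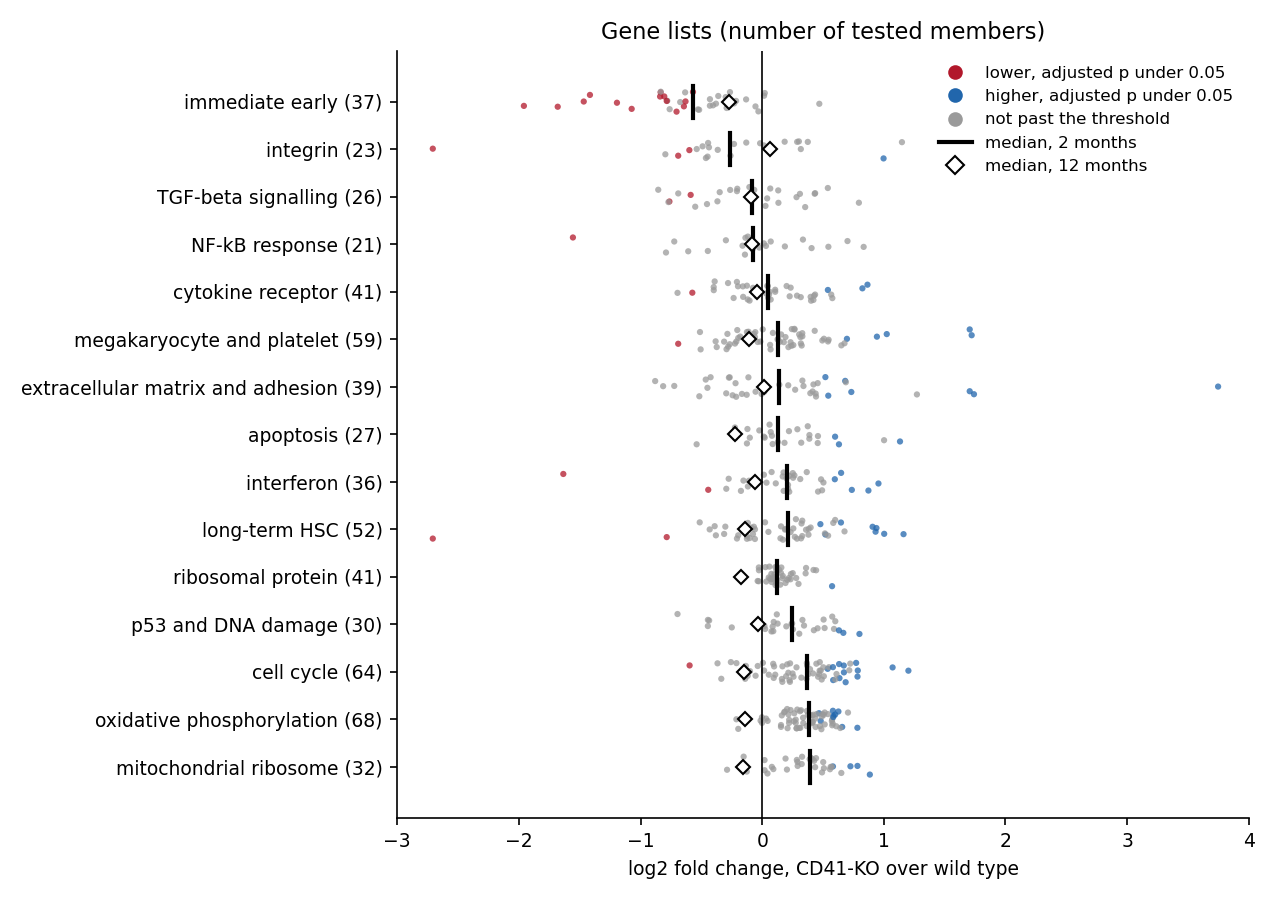
Log2 fold change at 2 months (x axis, CD41-KO over WT) of the tested members of each gene list, one point per gene, with called genes in colour. The immediate early genes have their median at -0.57, and the cell cycle, oxidative phosphorylation and mitochondrial ribosome genes at 0.37, 0.38 and 0.40.

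Among the integrins, Itgb3, the beta-3 partner of CD41, read 1.84, 1.52 and 1.63 in WT and 1.07 and 0.88 in CD41-KO. Its difference of -0.69 ± 0.17 passed (adjusted p = 0.0335, limma), but the call was lost in 8 of 20 alternatives, including those without WT sample 1, WT sample 3 or either CD41-KO sample. Itga5, the alpha chain of the fibronectin receptor, differed by -0.60 ± 0.12, and Itga2, a chain of the collagen receptor, by 1.00 ± 0.23. Itga5 lost its call without either CD41-KO sample, and Itga2 lost its call without WT sample 2, WT sample 3 or CD41-KO sample 1. Of 23 integrin chains 3 were lower (13%, beside 4.02% of all genes) and 1 was higher (4.35%, beside 6.34%). The 3 lower chains include Itga2b, the targeted gene itself, along with Itgb3 and Itga5. The replicate block gave 7 lower, Itga2b again among them, and 3 higher, beside 15.8% and 20% of all genes. Itgav, which also pairs with beta-3, read -2.16, -1.75 and -1.90 in WT and -1.65 and -1.59 in CD41-KO, and its difference of 0.32 did not pass (adjusted p = 0.442). For Itgav another probe gave a difference of 1.18 ± 0.22, and for Itgb3 another probe gave only -0.18 ± 0.30.

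Of the ligands of the CD41 receptor, none of 6 tested passed. Vwf differed by 0.68 (adjusted p = 0.0525, and 0.0011 with the replicate block), Thbs1 by 0.54, Fn1 by 0.28, Fga by -0.01 and Fgb by -0.23 (adjusted p = 0.0312 with the replicate block). The other Fga probe differed by -0.46 ± 0.14. Of 28 genes for the activation of the receptor and the signal that follows, Rap1a, the small GTPase that switches integrins on, was higher (0.64 ± 0.15). Src, a kinase bound to beta-3, read -1.15, -1.49 and -0.93 in WT and -1.67 and -1.96 in CD41-KO, without overlap, and did not pass (-0.63, adjusted p = 0.114, and 0.0235 with the replicate block). The adaptors Tln1 and Fermt3 did not pass either, and Fermt3 passed with the replicate block (0.27, adjusted p = 0.0202). In that fit 12 of the 28 were higher and 2 lower, beside 20% and 15.8% of all genes. The call of Rap1a was lost without WT sample 2, WT sample 3 or either CD41-KO sample.

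Of 59 megakaryocyte and platelet genes 5 were higher (8.47%) and 1, Itgb3, was lower, close to the 6.34% and 4.02% over all genes. Selp, P-selectin of platelet granules, read -4.20, -3.94 and -3.79 in WT and -2.13 and -2.41 in CD41-KO (1.71 ± 0.19, adjusted p = 0.000898 in limma). Pf4, the chemokine platelet factor 4, read 1.95, 1.68 and 1.67 in WT and 2.55 and 2.37 in CD41-KO (0.70 ± 0.15, adjusted p = 0.021). Both were higher without overlap. Clu was higher by 0.94 ± 0.14 and the ADP receptor P2ry1 by 1.02 ± 0.28. The chemokine Ppbp was above background only in CD41-KO and was at least 2.26-fold higher (adjusted p = 0.0122). The list's 5 higher members were 3 without WT sample 2 or WT sample 3, 1 without CD41-KO sample 1 and 2 without CD41-KO sample 2. None of the 10 tested megakaryocyte transcription factors passed. The replicate block gave 14 higher and 7 lower of the 59, beside 20% and 15.8% of all genes. Of the transcription factors it gave 2 higher and 1 lower.

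Of 52 genes of long-term HSCs 8 were higher (15.4%, beside 6.34% of all genes) and 2, Itga2b and Egr1, were lower (3.85%, beside 4.02%). Hoxb5, a homeobox gene that marks long-term HSCs, read -2.21, -2.30 and -2.21 in WT and -1.19 and -1.28 in CD41-KO (1.00 ± 0.16, adjusted p = 0.00563 in limma). Hoxa10 (0.65 ± 0.13), Hoxb4 (0.48 ± 0.12), the MYC family member Mycn (1.16 ± 0.18), the channel Trpc6 (0.93 ± 0.14), Ctnnal1 (0.94 ± 0.17) and the adhesion molecule Esam (0.52 ± 0.14) were higher as well, with Slamf1 as the eighth. These CD41-KO values did not overlap the WT values. Kit (0.29), Procr (0.32), Mecom (0.38) and Gata2 (-0.06) did not pass. Kit, Procr and Mecom passed with the replicate block (adjusted p = 0.0144, 0.0234 and 0.00376). In that fit 20 members were higher and 7 lower, beside 20% and 15.8% of all genes. Without CD41-KO sample 1 none of the 8 passed as higher, and without WT sample 2, WT sample 3 or CD41-KO sample 2 the count was 5, 5 and 4.

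Of 41 genes with known ageing changes in HSCs 12 were higher (29.3%, beside 6.34% of all genes) and 5 were lower (12.2%, beside 4.02%). The metallothionein Mt1 read -1.58, -2.10 and -1.75 in WT and 0.16 and -0.33 in CD41-KO, a difference of 1.72 ± 0.24 (adjusted p = 0.00247, limma), and Mt2 differed by 1.49 ± 0.21. Nupr1 (0.74 ± 0.11) and Pde10a (1.17 ± 0.15) were also higher and Runx1t1 was lower (-1.15 ± 0.17). Selp, Clu, Zg16, Itga2b, Itgb3, Nr4a1 and Egr1, described above, belong to this list too. The 12 higher and 5 lower calls were 6 and 3 without CD41-KO sample 1, and 8 and 2 without CD41-KO sample 2. Without WT sample 1 or WT sample 3 they were 11 and 3.

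Of 36 interferon genes 5 were higher (13.9%, beside 6.34% of all genes) and 2 lower (5.56%, beside 4.02%). With the replicate block 15 were higher and 2 lower, beside 20% and 15.8% of all genes. Cxcl10, a chemokine, read -1.08, -1.23 and -1.05 in WT and -2.52 and -2.99 in CD41-KO, a difference of -1.64 ± 0.18 (adjusted p = 0.000855, limma). Isg15 was also lower (-0.44 ± 0.12). Its call was lost in 11 of 20 alternatives, including those without WT sample 1, WT sample 2 or WT sample 3. The GTPases Gbp2 (0.96 ± 0.15) and Gbp3 (0.87 ± 0.18), the transcription factor subunits Stat2 (0.65 ± 0.15) and Irf9 (0.60 ± 0.14), and Xaf1 (0.74 ± 0.20) were higher. Members of the list passed in both directions. Without WT sample 2, WT sample 3, CD41-KO sample 1 and CD41-KO sample 2 the 5 higher calls were 2, 1, 0 and 2.

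Matrix and adhesion genes were higher in 7 of 39 (17.9%, beside 6.34% of all genes) and lower in none. With the replicate block 16 were higher and 5 lower, beside 20% and 15.8% of all genes. Besides Emilin2 and Selp the 7 included Alcam (0.68 ± 0.14), Cd47 (0.54 ± 0.15) and Esam. The fibrillin Fbn1, also among the 7, was above background only in CD41-KO and at least 1.93-fold higher. A further Cd47 probe had the opposite sign. The count was 4, 5, 2 and 3 without WT sample 2, WT sample 3, CD41-KO sample 1 and CD41-KO sample 2. In the apoptosis list the initiator caspase Casp9 (1.13 ± 0.18), Bok (0.60 ± 0.13) and Bid (0.63 ± 0.14) were higher in limma (3 of 27, or 11.1%, beside 6.34%). All 3 are pro-apoptotic. Among 30 p53 and DNA damage genes Sesn1 (0.80 ± 0.13), Aen (0.67 ± 0.16) and Gadd45a (0.63 ± 0.17) were higher (10%, beside 6.34%). Of 20 antigen presentation genes H2-Ab1 (0.69 ± 0.16), H2-M3 (0.78 ± 0.19) and Tap1 (0.43 ± 0.11) were higher (15%, beside 6.34%). Of 41 cytokine receptor and JAK-STAT genes Il6st (0.82 ± 0.14), Il10rb (0.87 ± 0.23) and Epor (0.54 ± 0.13) were higher (7.32%, beside 6.34%). Lepr (-0.57 ± 0.12) was lower (2.44%, beside 4.02% of all genes). None of the 11 JAK and STAT genes in this list passed. Other Lepr probes differed by 0.26 ± 0.14 and -0.13 ± 0.16. In the fit with the replicate block the apoptosis list had 8 members higher, the p53 list 11 higher and 3 lower, the antigen presentation list 9 and 1, the cytokine receptor list 10 and 5, and the JAK and STAT genes 3 and 1. The shares of all genes in that fit were 20% higher and 15.8% lower. Among 20 genes of multipotent progenitors 2 were higher (10%, beside 6.34%), Irf8 (0.95 ± 0.23) among them, and 1, Ccr2 (-0.86 ± 0.17), was lower (5%, beside 4.02%). These small counts depended on single arrays. Without CD41-KO sample 1 none of the genes of the apoptosis, p53, antigen presentation and cytokine receptor lists passed, and without WT sample 2, WT sample 3 or CD41-KO sample 2 their higher calls were at most 2, 1, 0 and 1.

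Most lists of markers of other cells gave no call, beside 10.4% of all genes called, and each list held at most 16 tested genes. None of 11 B cell, 12 T and NK cell, 11 macrophage, 12 neutrophil or 15 mast cell, basophil and eosinophil markers passed the limma test. These results rest on 1 probe per gene. For the neutrophil marker Mpo the probe used differed by -0.05 ± 0.50, but another probe differed by 3.045 ± 0.30. Under the replicate block 20% of all genes were higher and 15.8% lower. In that fit 1 of the B cell markers was higher and 1 lower, 0 and 2 of T and NK cells, 1 and 2 of macrophages, 2 and 2 of neutrophils and 1 and 4 of mast cells, basophils and eosinophils. Their summed levels, in units of the array's 75th percentile, were 63 to 76.7 in CD41-KO and 70.5 to 84 in WT for B cells, 15.8 to 18.4 and 16.4 to 19.8 for T and NK cells, 12.5 to 14.6 and 11.6 to 14.5 for macrophages, 5.53 to 6.9 and 6.55 to 8.09 for neutrophils, and 12.9 to 13 and 12.9 to 14 for mast cells, basophils and eosinophils. The ranges overlapped in each of these. For the 16 erythroid markers the sums were 428 to 530 and 460 to 610. Single members differed in both directions: Hbb-bt was higher (1.50 ± 0.27) and Hba-a1 (-0.80 ± 0.21) was lower. The 11 endothelial markers summed to 20.4 to 21.5 in CD41-KO and 19.3 to 20.1 in WT, without overlap, with Stab2 higher (1.27 ± 0.20) and Flt1 lower (-0.64 ± 0.18). Another Flt1 probe had the opposite sign (0.66 ± 0.60). Flt1 lost its call when any 1 of the 5 arrays was left out, Hbb-bt without CD41-KO sample 1, and Hba-a1 without WT sample 1, WT sample 3 or either CD41-KO sample. Under that block 4 erythroid markers were higher and 4 lower, and 4 and 1 of the endothelial markers. The 8 stromal markers summed to 3.73 to 4.22 and 4.03 to 4.49. The part of these cells in the results was not tested.

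The position of the called genes was described around Itga2b and along the genome, on the mm9 coordinates of the probes. On chromosome 11 without Itga2b 10.3% of 2259 genes were called, beside 10.4% on the other autosomes. Within 2 Mb of Itga2b 10 of 142 genes (7.04%) were called. Genes called in the same direction at both ages made up 2.35% of chromosome 11 and 1% of the other autosomes, and genes with a called difference of at least 2-fold 4.07% and 3.36%. Of the genes with the largest differences, Scpep1, Dhx40, Lypd9, Gria1, Dhrs7c, P2rx5 and Itga2b lie on chromosome 11.

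Some short stretches held many of the large differences. Among 438 windows of 5 Mb with at least 20 tested genes, the median share of genes with a called difference of at least 2-fold was 2.95%. The share was 30.6% on chromosome 4 from 110 to 115 Mb (mm9), where Skint4 (-3.07), Skint2 (-1.80), Skint3 (-1.28) and Skint10 (-1.04) were lower and Skint8 (2.60) was higher. It was 31.8% on chromosome 5 from 15 to 20 Mb, 18.5% on chromosome 16 from 45 to 50 Mb, next to Cd200r2 and Cd200r3, and 14.5% on chromosome 13 from 65 to 70 Mb, where the zinc finger genes Zfp459 (2.08) and Zfp458 (1.36) were higher and Zfp874a (-1.54) and Zfp712 (-1.25) lower. On chromosome 11 from 55 to 60 Mb, with Gria1 and Lypd9, it was 12.4%. These windows and the genes named in them were chosen after their values were seen. Members of such families share sequence, so that a probe can read more than 1 of them.

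At 12 months, 864 genes (2.69%) were higher and 845 (2.63%) lower in CD41-KO, together 5.33%. Of the 3325 genes called at 2 months 1701 (51.17%) had the same sign at 12 months, beside 47.04% of all genes. Called at both ages were 525 genes: 205 higher at both, 150 lower at both and 170 in opposite directions. Those with the same direction made up 10.68% of the calls at 2 months and 20.77% of the calls at 12 months. The genotype effect, taken as the difference between CD41-KO and WT, differed between ages in 2772 genes (8.64%, interaction in limma, and 35.7% with the replicate block). Among them were 1593 (47.91%) of the genes called at 2 months. The ages share no arrays, and all WT arrays at 2 months differ in Xist from all other arrays. An interaction found here or below therefore cannot tell a change with age from the difference in sex at 2 months.

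Several of the largest differences were found at both ages. Itga2b was lower by 1.48 at 12 months (adjusted p = 0.0152, interaction adjusted p = 0.0898, limma). P2rx5 differed by -3.40 at 12 months, Ccdc54 by -3.05, Dhrs7c by -2.66, Cd200r2 by -2.50 and Scpep1 by 1.94, all called. None of these 5 passed the interaction test, though Ccdc54 and Scpep1 did with the replicate block (adjusted p = 0.00571 and 0.0131). Emilin2 (0.64) was higher at 12 months as well, but by less, with a difference between ages of 3.105 ± 0.21 (adjusted p = 0.000167). Igsf23 was lower at 2 months and higher (0.69) at 12 months. Fabp4 (-0.09), Tmem252 (-0.44) and Unc5a (-0.09) did not pass at 12 months (Tmem252 did with the replicate block, adjusted p = 0.0141), and their genotype effects differed between ages.

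Of the immediate early genes, Klf2 (-1.56), Klf6 (-1.12), Dusp1 (-0.87), Klf4 (-0.84) and Klf10 (-0.81) were lower at 12 months and none was higher, with a median of -0.28. At that age 17 were lower and 1 higher with the replicate block, beside 15.8% and 13.9% of all genes. The genotype effect was more negative at 2 months for Junb, Atf3, Egr3, Nr4a1, Socs3, Dusp2 and Gadd45g, and more positive for Myc, in the interaction test. Socs3 differed by 0.08, Atf3 by 0.21 and Nr4a1 by 0.18 at 12 months. Klf2, Klf6 and Dusp1 did not pass the interaction test, and Klf2 did with the replicate block (adjusted p = 0.0289). In oxidative phosphorylation none was higher and 3 were lower at 12 months (median -0.14), and the effect differed between ages in 12 of 68 members, beside 8.64% of all genes. In the cell cycle none was higher and Gins1, Pcna, Mcm5 and Ccnd1 were lower (median -0.15), and the effect differed in 14 of 64. In the mitochondrial ribosome it differed in 7 of 32 members (median -0.16 at 12 months). All of these 12, 14 and 7 members had the more positive effect at 2 months. With the replicate block, beside 35.7% of all genes in either direction, the effect was more positive at 2 months in 56, 41 and 23 members and more negative in 0, 2 and 1. In that fit 28, 26 and 13 members were lower and 1, 6 and 3 higher at 12 months.

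**Figure D5:**
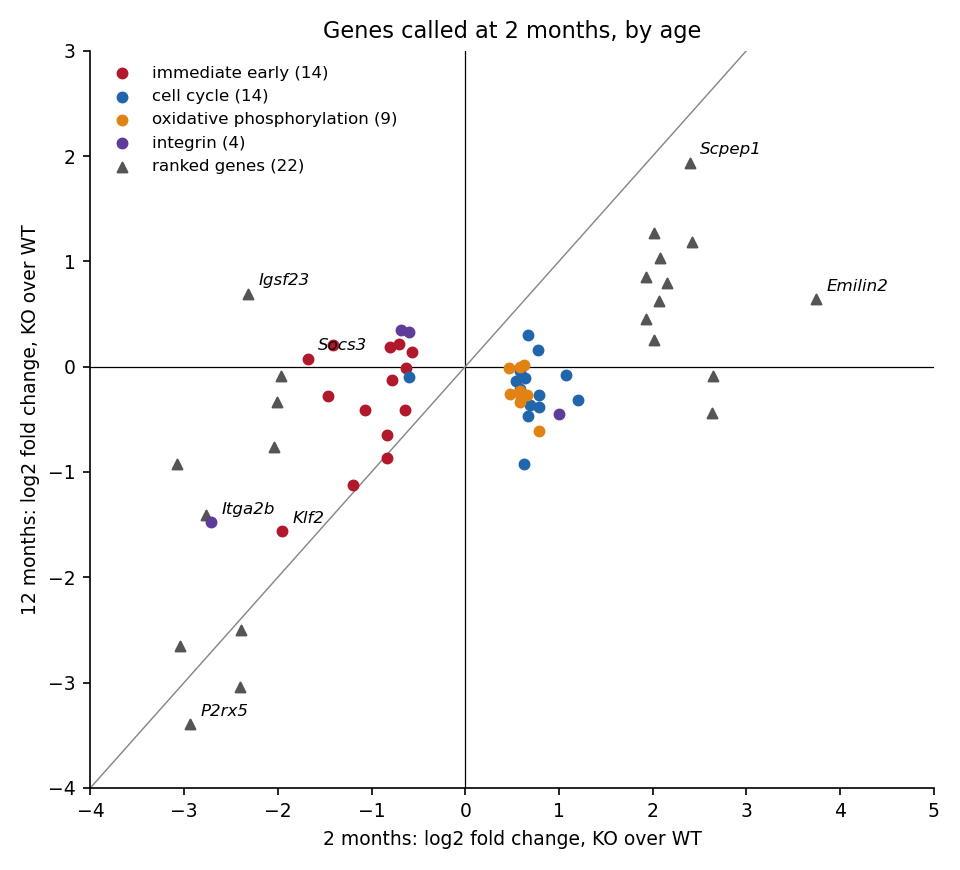
Difference between CD41-KO and WT at 2 months (x axis, log2) and at 12 months (y axis, log2) for 22 of the genes with the largest differences and the called members of the immediate early, cell cycle, oxidative phosphorylation and integrin lists, with the line of equal values. P2rx5, Ccdc54, Cd200r2 and Scpep1 lie near the line, Fabp4 and Tmem252 lie near 0 at 12 months, and Igsf23 changes sign.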

How the data were processed

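Per the file headers, the intensities of the spots were read with Agilent Feature Extraction 10.7.3.1 (protocol GE1_107_Sep09), with probe positions on mm9. The processed intensity was divided by each array's 75th percentile (450 to 797) and taken to log2. A further table deposited by the authors gives log2 values for these arrays. It has medians of 8.07 to 8.08 and is not centred. Its direction is that of the signal, and on each array it correlated at 0.99896 or more with the log2 of normexp-corrected signals. Its making is not described in the sources used here. Amplification from 1000 cells can distort ratios.

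Control spots and outlier spots (104 to 173 an array) were left out. Probes on X or Y (2379 by position, 6 by RefSeq) were removed, and 605 probes had no position. Probes well above background on all arrays of a group were kept (48269 of 55681), with the brightest per gene. RefSeq accessions named 26300 probes, and 29381 kept the file's name. Limma 3.58.1 in R 4.3.3 fitted 11 arrays with 1 coefficient per group (32085 genes, 21 with a missing value on some array), two-sided, with Benjamini-Hochberg adjusted p under 0.05. Block fits used statmod 1.5.0. Their random-effect correlation was 0.683.

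The numbers of the labels name the slide. Deviations of same-numbered arrays correlated at 0.353 to 0.737 (15 pairs) and of others at -0.724 to 0.215. Deviations from a group's mean cancel within the group, so the negative values follow in part from the construction. The numbers pair the arrays by slide, and whether the samples were prepared in pairs is not known. The main fit has no block. On simulated data of this comparison (32064 genes) the script recovered 39% of log2 changes of 1 and 81% of log2 changes of 2, with 3 false calls. There 100 genes were changed by each amount, and the noise was independent between arrays, without a slide effect. The real arrays differ in both respects, so these rates need not hold for them.

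Named were Itga2b, list members (those with the smallest p and those whose role is described), and the 12 highest and 12 lowest called protein-coding genes above background on all 5 arrays with no overlap and 1 sign on both slides, with 6 bounds in each direction among genes not above background in 1 group. Members and lists were chosen with earlier results of these data known. The promoters come from RefSeq, GRCm38.p6. Some genes that the rule names are not reported here. Exons and UTRs under the probes were not analysed.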

Additional observations from a re-analysis of the deposited data

Results flagged for a closer look

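For the genes that follow, the interaction test in limma found that the difference between CD41-KO and WT was not the same at 2 and at 12 months. The value given is the log2 difference at 2 months minus that at 12 months. Among the genes with the largest differences, the effect was more positive at 2 months for Emilin2 (3.105), Tmem252 (3.08), Fabp4 (2.73), Zg16 (1.36), Ecscr (1.76), Speer4e (1.47), Cfl2 (1.45), Cdk5rap1 (1.23) and Gria1 (1.08). It was more negative for Igsf23 (-3.01), Skint4 (-2.15), Unc5a (-1.87), Ermn (-1.67), Cd200r3 (-1.36) and Plaur (-1.27). Genes above background in only 1 genotype at 2 months were left out, since they have bounds only. Of the immediate early and stress genes described, the effect was more negative for Socs3 (-1.76), Atf3 (-1.62), Ddit4 (-1.29) and Junb (-1.19). Of the cell cycle genes described, it was more positive for E2f2 (1.52), Nusap1 (1.15), Mcm10 (1.14), Kif11 (0.62) and Ccne1 (0.61). Of those of mitochondria and ribosomes, it was more positive for Atp5k (1.39), Mrpl18 (1.22), Mrps30 (1.12), Ndufc2 (0.92), Ndufc1 (0.82), Rpl4 (0.78), Ndufa5 (0.74) and Ndufb8 (0.61). Of the platelet, integrin and adhesion genes, it was more positive for Selp (2.01), P2ry1 (1.60), Itga2 (1.45), Pf4 (1.18) and Rap1a (0.82). The integrin chains with a more negative effect were Itgb3 (-1.04) and Itga5 (-0.93). Stem cell and ageing genes with a more positive effect were Trpc6 (1.24), Ctnnal1 (1.08), Hoxa10 (1.02) and Pde10a (0.88). Of the interferon genes, it was more positive for Gbp3 (1.30), Gbp2 (1.17), Stat2 (1.05) and Irf9 (0.76). It was more negative for Cxcl10 (-1.72) and Isg15 (-0.71). In apoptosis and DNA damage, it was more positive for Bid (1.46), Casp9 (1.43) and Gadd45a (1.17). Among receptors and markers of other cells, it was more positive for Hbb-bt (3.22), Il10rb (1.33), Stab2 (1.13) and Epor (0.72). It was more negative for Lepr (-1.25) and Ccr2 (-0.91). The adjusted p of these values ran from 8.806e-05 for Igsf23 to 0.0482 for Kif11.

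Outside the tested genes, Xist stood apart: it was higher in CD41-KO than in WT at 2 months by 7.55 on the log2 scale (adjusted p = 3.968e-08, limma), while the WT and CD41-KO arrays at 12 months read 4.27 to 5.18. Of 1511 genes on X and Y with a value, 332 were higher and 136 lower in CD41-KO at 2 months.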

How the results depend on the processing

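Itga2b kept its direction and its call in all 20 alternatives (-3.12 to -2.29, adjusted p up to 0.0365), and leaving out 1 array gave -3.12 to -2.30. The counts moved more. Leaving out each of the 5 arrays in turn gave 309 to 1899 genes higher, 352 to 961 lower and 512 to 2631 with a different genotype effect at both ages, with 7 to 13 lower immediate early genes, 0 to 11 higher oxidative phosphorylation genes and 3 to 12 higher cell cycle genes. In the same order, an adjusted p under 0.01 gave 635, 439, 487, 8, 0 and 3, and a difference of at least 2-fold gave 651, 445, 1583, 6, 0 and 2. The replicate block gave 6419, 5073, 11460, 28, 51 and 34, and the replicate number as a random block 6739, 4936, 11650, 28, 51 and 34. In these fits of 11 arrays the block removed no call of a named gene, and with only the 4 paired arrays 6 such calls were lost. The 5 arrays at 2 months alone gave 333 higher, 239 lower, and 4, 0 and 2 in the lists. The 4 paired arrays with the replicate block gave 3576 higher, 2681 lower, 25 oxidative phosphorylation genes and 23 cell cycle genes. Median centring gave 829 lower, 1616 with a different effect, 1 oxidative phosphorylation gene and 5 cell cycle genes. Normexp correction gave 1519 with a different effect, 15 oxidative phosphorylation genes came from the authors' deposited table, and array weights gave 4490 and 14. When all kept probes of a gene were averaged, Flt1 (0.00903) and Skil (0.0406) changed sign. Of the values of named genes, 1804 kept direction and call, 377 lost the call and 2 changed sign, and 592 of the list medians stayed within the spread while 28 moved. Why the counts move was not tested beyond what fewer arrays or the added block change by construction. With 2 CD41-KO arrays, a single array weighs heavily, and dim genes have bounds only.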
